A study of Mus musculus with 2 samples.

Results

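Cartilage is made by chondrocytes, which lay down a matrix of type II collagen fibrils and aggrecan and, in the growth plate, pass from resting through proliferating to hypertrophic cells. Genes of this programme were followed in single cells of mouse bone, as a fixed list of 10 chosen by name among the 21905 gene symbols listed in both libraries: Sox9, Acan, Col2a1, Col9a1, Col10a1, Ihh, Pth1r, Matn3, Hapln1 and Comp. The cells were bone resident cells, released from tibias and femurs of female mice aged 12 weeks that had been given vehicle (Veh) or doxorubicin at 10 mg/kg (Doxo, a chemotherapy drug that damages DNA) and were studied at 96 h. Bones were cleaned of muscle, ground and digested with collagenase, cells carrying CD45, CD71, Ter119 or CD31 (the last by the sample labels only, not by the published method) were depleted by beads and sorting, and 1 droplet-based single-cell library was made per condition. Neither the strain, nor the genotype, nor the number of mice behind each library is stated for this experiment, and with 1 library per condition no difference between Veh and Doxo can be tested. Levels are given as CPM, the unique molecular identifiers (UMIs) of a gene over all UMIs of the cells summed, scaled to counts per 1000000, and intervals are 95% intervals of counting error alone, which leave out the differences between mice and between libraries.

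SOX9 is the transcription factor that sets up the chondrocyte fate and drives the matrix genes. Col2a1 encodes the chain of type II collagen, Col9a1 a chain of the type IX collagen that decorates its fibrils, Acan the large proteoglycan aggrecan, and Hapln1 the link protein that ties aggrecan to hyaluronan. Matn3 (matrilin 3) and Comp (cartilage oligomeric matrix protein, also made by tendon and ligament cells) are adaptor proteins of the matrix. Ihh, made by prehypertrophic chondrocytes, is the hedgehog ligand that stimulates proliferation and the production of PTHrP, the product of Pthlh, and PTHrP acts back through its receptor, encoded by Pth1r, to delay hypertrophy. Col10a1 encodes type X collagen, the classical product of hypertrophic chondrocytes. PTH1R is also the receptor through which parathyroid hormone acts on the osteoblast lineage.

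In the GENCODE vM21 annotation of GRCm38, Sox9 lies on chromosome 11 from 112782224 to 112787760, Acan on 7 from 79053483 to 79115099, Col2a1 on 15 from 97975602 to 98004695, and Col9a1 on 1 from 24177610 to 24252684. Col10a1 lies on 10 from 34389981 to 34397085, Ihh on 1 from 74945315 to 74951672, Pth1r on 9 from 110722085 to 110747145, and Matn3 on 12 from 8947929 to 8972028. Hapln1 lies on 13 from 89539796 to 89611652 and Comp on 8 from 70373558 to 70382066. The 10 genes thus stand at separate places, with only Col9a1 and Ihh on 1 chromosome. RefSeq promoters on GRCm38.p6 were at hand for 7 of the 10 genes (not for Sox9, Col2a1 and Comp). Among them, Col9a1 and Matn3 are matrix genes that followed each other across the cell classes. Ihh and Col10a1 are the prehypertrophic and the hypertrophic gene. Their summed levels in chondrocyte-like cells differed between the libraries in opposite directions, though not within each cluster of these cells. Promoters of these 4 genes are printed, since the results turn on these pairs. Each holds the 250 bases before the RefSeq start, 5′ to 3′ along the gene's own strand, and capitals mark matches to the SOX core (ACAAAG or ACAATG, either strand) or the RUNX core (ACCACA, either strand).
Col9a1, chr1:24177360-24177609, plus strand: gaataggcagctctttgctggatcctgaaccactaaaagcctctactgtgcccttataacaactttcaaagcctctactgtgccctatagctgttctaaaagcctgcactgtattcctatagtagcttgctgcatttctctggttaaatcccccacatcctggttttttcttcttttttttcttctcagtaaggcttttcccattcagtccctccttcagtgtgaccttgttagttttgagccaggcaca
Matn3, chr12:8947679-8947928, plus strand: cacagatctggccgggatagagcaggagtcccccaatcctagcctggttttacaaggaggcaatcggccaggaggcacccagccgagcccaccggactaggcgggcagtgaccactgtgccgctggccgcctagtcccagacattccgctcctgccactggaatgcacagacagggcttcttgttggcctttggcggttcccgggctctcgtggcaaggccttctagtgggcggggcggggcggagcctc
Ihh, chr1:74951673-74951922, minus strand: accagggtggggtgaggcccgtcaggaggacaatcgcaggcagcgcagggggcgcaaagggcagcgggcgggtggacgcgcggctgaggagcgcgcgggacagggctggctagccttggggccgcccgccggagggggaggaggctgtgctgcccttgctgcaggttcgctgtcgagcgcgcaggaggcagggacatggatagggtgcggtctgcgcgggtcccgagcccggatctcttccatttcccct
Col10a1, chr10:34389731-34389980, plus strand: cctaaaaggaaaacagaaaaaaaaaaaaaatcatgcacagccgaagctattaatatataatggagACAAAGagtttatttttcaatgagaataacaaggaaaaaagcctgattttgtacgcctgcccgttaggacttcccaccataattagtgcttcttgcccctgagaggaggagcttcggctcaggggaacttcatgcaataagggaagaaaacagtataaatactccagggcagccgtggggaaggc
The Col10a1 promoter held 1 SOX match and the other 3 printed windows held neither core. Among all 10 windows of the 7 genes, which include further starts of Col9a1 and Pth1r, 2 held a SOX core and 1 a RUNX core. Over the 32851 RefSeq promoters of the same length, 25.2% held a SOX core and 14.0% a RUNX core, so the matches are a description of these windows and no more. Reads of a 3′ library do not tell which start was used.

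Each library held 2488 cells, with a median of 8693 UMIs per cell in Veh and 7347.5 in Doxo, and 4 cell barcodes occurred in both. Cells were grouped with the 10 genes kept out of the clustering, and the chondrocyte-like cells were named by other markers: all 8 (Col9a2, Col9a3, Col11a2, Chad, Cnmd, Snorc, Ucma and Mia) marked them, and Serpina1a, Serpina1c, Serpina1d, Prkg2 and Panx3 led their cluster. They numbered 246 in Veh and 202 in Doxo and were deep, with a median of 19484.5 UMIs per cell in Veh and 14678.5 in Doxo. The other classes were bone and cartilage fibroblast-like (1110 Veh and 1359 Doxo cells), arteriolar and endosteal fibroblast-like (409 and 248), CAR-like (Cxcl12-abundant reticular, 363 and 419), osteoblast-like (213 and 136) and endothelial-like cells (103 and 69), and a cluster led by Clic5 and Rab37 (44 and 55), which was left unnamed. RNA of other cells differed between the chondrocyte-like cells of the libraries. The 5 erythroid markers summed to 680 CPM in Veh, with a UMI in 81.3% of the cells, and to 2.94 CPM in Doxo, in 0.990% of the cells. The 8 osteoblast markers summed to 10360 CPM in Veh and 3708 CPM in Doxo, with all 8 found in each library. The 8 endothelial markers summed to 10.1 CPM in Veh, with Kdr and Esam at 0, and to 15.7 CPM in Doxo, with Tek at 0. The part of these differences in the results on the 10 genes was not tested.

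In both libraries, 8 of the 10 genes were highest in the chondrocyte-like cells, as were 5.94% of the 13528 genes with at least 50 UMIs. Since genes that go with the 10 still shaped the cluster, this is a description. Comp was the first exception: its level was 6907 CPM in chondrocyte-like cells of Veh and 3657 CPM of Doxo, against 11349 CPM and 8172 CPM in bone and cartilage fibroblast-like cells. Col10a1 was the other, higher in the chondrocyte-like cells of Veh (446 CPM, against 115 CPM in bone and cartilage fibroblast-like cells) but not of Doxo (142 CPM against 190 CPM). Ihh was the most restricted to chondrocyte-like cells by its counts, with 108 CPM in Veh and 178 CPM in Doxo against at most 3.55 CPM in any other class of either library. Matn3 had 684 CPM and 557 CPM in chondrocyte-like cells, and reached 146 CPM elsewhere only in the osteoblast-like cells of Doxo, where 1 cell held 53.2% of its UMIs. Sox9, Acan and Hapln1 formed a graded group, with their second level in bone and cartilage fibroblast-like cells: 600 CPM of Sox9, 365 CPM of Acan and 221 CPM of Hapln1 in Veh, and 912 CPM, 516 CPM and 277 CPM in Doxo. In that class Sox9 was found in 67.9% of Veh and 76.1% of Doxo cells, against 5.83% of Veh and 10.1% of Doxo endothelial-like cells, which should lack it and whose median depth was 6326 and 4629 UMIs.

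**Figure D1:**
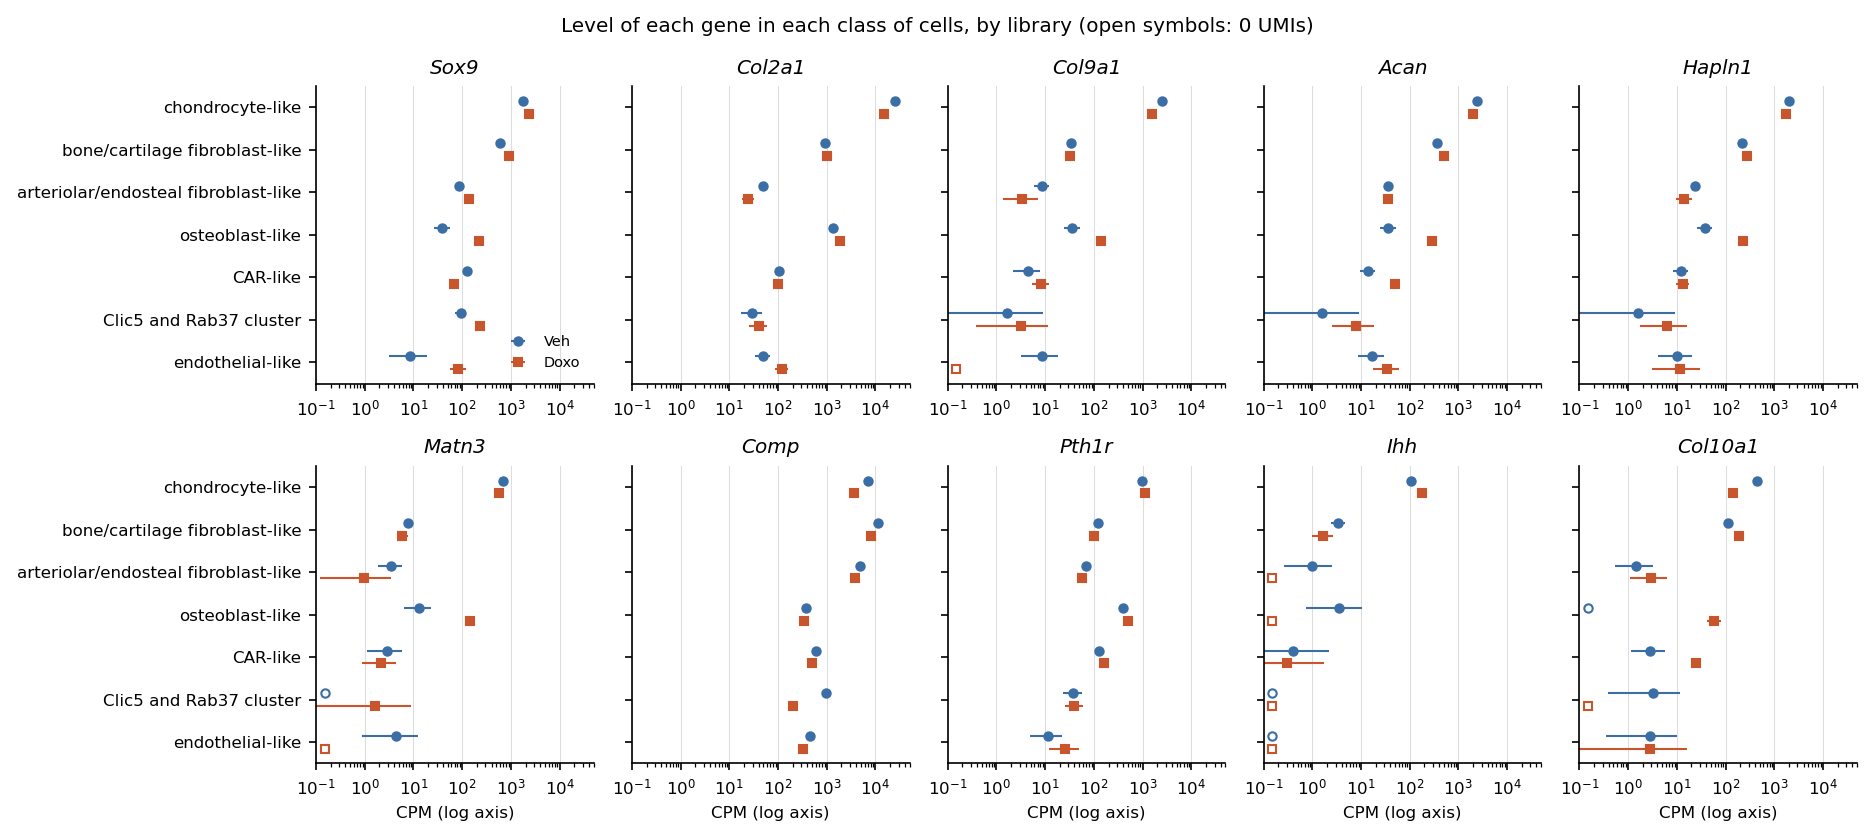
Level of each of the 10 genes (CPM of summed UMIs, log axis, with 95% counting intervals) in the 7 classes of cells, with circles for Veh and squares for Doxo, 1 library each. In every panel but that of Comp, and that of Col10a1 in Doxo, the chondrocyte-like cells in the top row lie farthest to the right.

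In chondrocyte-like cells, the collagens, the proteoglycan partners and the adaptor proteins of the matrix were lower in Doxo than in Veh, while the transcription factor Sox9 and the signalling genes Ihh and Pth1r were higher in the class as a whole. Within the 3 clusters of these cells described further on, which followed the libraries, Ihh was lower in Doxo in each and Pth1r in 2 of 3. Col10a1 was higher in Doxo in the first cluster, and Matn3 in the second (333 CPM in Veh and 623 CPM in Doxo). Sox9, Acan, Col2a1, Col9a1, Hapln1 and Comp kept the direction of the class in each cluster. Over the class, 7 genes were lower and 3 higher in Doxo, while 54.4% of the 12310 genes with at least 10 UMIs in the class were higher. Col10a1 alone was at least 2-fold apart, as were 13.3% of all genes in either direction (6.75% of those with at least 50 UMIs), 7.24% in the lower and 6.05% in the higher direction. The median log2 ratio of Doxo to Veh was -0.28 for the 10 genes and 0.05 for all genes.

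Sox9 stood at 1780 CPM in Veh and 2316 CPM in Doxo, a log2 ratio of 0.38 (0.33 to 0.43). This difference hung on the deep cells: with the 5% of cells with most UMIs removed from each library, many of them chondrocyte-like, the ratio of Sox9 was -0.11. Col2a1 stood at 24761 CPM in Veh and 15213 CPM in Doxo, a ratio of -0.70 (-0.72 to -0.69). The middle cell of the class had 22221 CPM of Col2a1 in Veh and 11248 CPM in Doxo, and the upper quartile of Doxo cells, 18436 CPM, lay below the Veh median. Col9a1 followed at 2554 CPM and 1570 CPM, also a ratio of -0.70 (-0.75 to -0.65).

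The proteoglycan partners were closer to each other in the libraries. Acan had 2410 CPM in Veh and 2020 CPM in Doxo, a ratio of -0.25 (-0.30 to -0.21), and Hapln1 1993 CPM and 1745 CPM, a ratio of -0.19 (-0.24 to -0.14). Both were found in at least 99.2% of the chondrocyte-like cells of either library. Of the adaptors, Matn3 had 684 CPM and 557 CPM, a ratio of -0.30 (-0.38 to -0.21), with a UMI in 90.2% of Veh and 85.1% of Doxo cells, or 62.9% and 50.3% once each cell was thinned to 2000 UMIs. Comp had the second lowest ratio of the 10, -0.92 (-0.95 to -0.89). It was lower in Doxo in each of the 3 classes with most of it, with ratios of -0.47 (-0.49 to -0.46) in bone and cartilage and -0.38 (-0.42 to -0.34) in arteriolar and endosteal fibroblast-like cells.

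Pth1r, the PTHrP receptor, had 970 CPM in Veh and 1144 CPM in Doxo, a ratio of 0.24 (0.17 to 0.30), and was found in 95.1% and 98.0% of the cells. Within the 3 clusters it had 793, 1339 and 1413 CPM in Veh and 487, 1078 and 1618 CPM in Doxo, so its direction turned in the first and second cluster. Ihh and Col10a1 were found in few cells. Ihh had 108 CPM and 178 CPM, a ratio of 0.72 (0.55 to 0.90), and a UMI in 23.6% (18.4 to 29.4) of Veh and 30.2% (24.0 to 37.0) of Doxo cells, or 9.17% and 15.6% at 2000 UMIs per cell, while no endothelial-like cell had one. A single Veh cell held 28.5% of the Ihh UMIs of its class, and without the cell with most UMIs in each library the ratio was 1.08 (0.88 to 1.28). Within the 3 clusters the direction was the other way: Ihh had 51.9, 801 and 110 CPM in Veh and 25.4, 238 and 52.0 CPM in Doxo. The clusters were of very unequal size in the libraries, with 157, 17 and 72 Veh and 17, 128 and 57 Doxo cells, and the part of this makeup in the class ratio was not tested. Col10a1 had 446 CPM and 142 CPM, a ratio of -1.65 (-1.81 to -1.50), and a UMI in 10.2% (6.69 to 14.6) of Veh and 7.43% (4.22 to 12.0) of Doxo cells, against 1.94% and 1.45% of endothelial-like cells. Its shares of cells overlapped in their intervals, and 3 Veh cells and 2 Doxo cells held 50% of its UMIs. One cell held 30.0% of them in Veh and 41.5% in Doxo, and without these the ratio was -1.91. Within the 3 clusters Col10a1 had 171, 1584 and 1001 CPM in Veh and 654, 96.2 and 75.8 CPM in Doxo. It was thus higher in Doxo in the first cluster. Fewer cells of a kind and less RNA per cell cannot be told apart for genes held by so few cells.

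**Figure D2:**
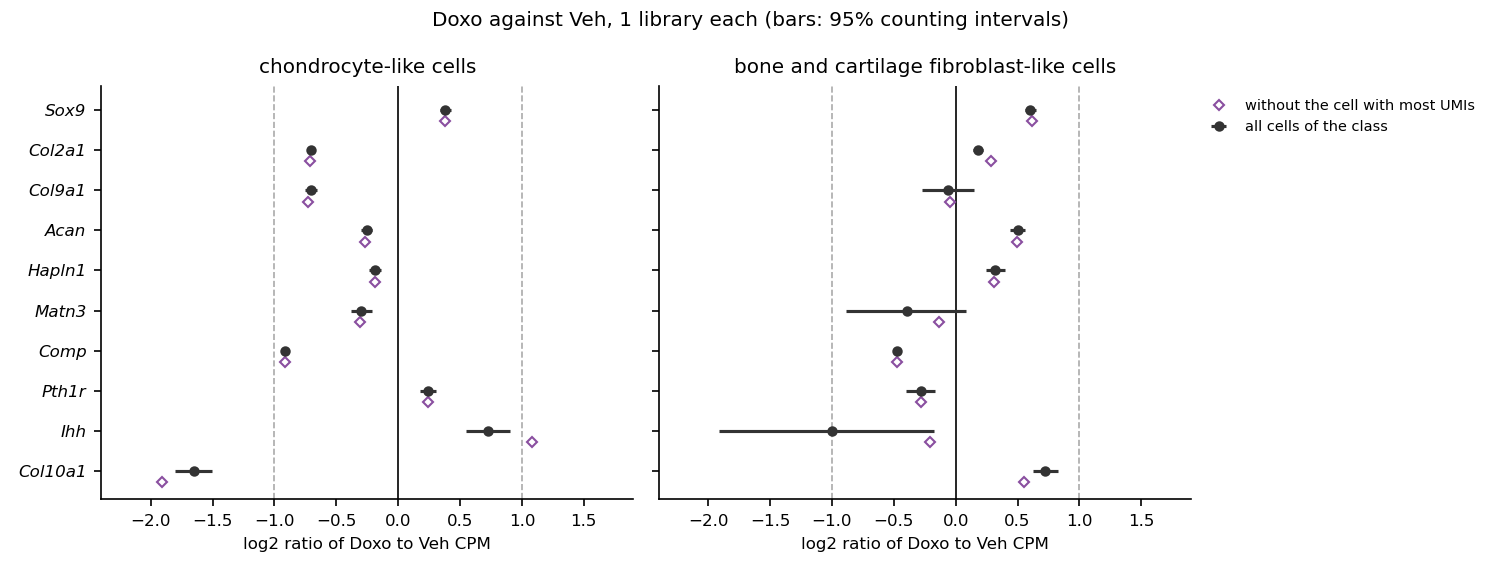
Log2 ratio of Doxo to Veh CPM for each gene in chondrocyte-like (left) and bone and cartilage fibroblast-like cells (right); filled points are all cells of the class with 95% counting intervals, open diamonds leave out the cell with most UMIs of the gene in each library, and dashed lines mark 2-fold. Col10a1 lies at -1.65 on the left and 0.72 on the right.

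Summed over the class, Col2a1 and Col9a1 stood in the same proportion in both libraries, though not in the first cluster of chondrocyte-like cells. There Col2a1 had 24142 CPM in Veh and 12088 CPM in Doxo, and Col9a1 2506 CPM and 923 CPM. For every 100 Col2a1 UMIs, the chondrocyte-like cells as a whole had 10.3 Col9a1 UMIs in Veh (10.1 to 10.5) and 10.3 in Doxo (10.0 to 10.6). Col9a3, another chain of type IX collagen, also lay close, at 16.0 (15.7 to 16.2) in Veh and 15.6 (15.3 to 16.0) in Doxo. Col9a2 was apart, at 15.1 (14.9 to 15.3) and 19.0 (18.6 to 19.4), as was Col11a1, a chain of the fibril-nucleating type XI collagen, at 19.7 (19.5 to 20.0) and 23.0 (22.5 to 23.5). This yardstick, Col2a1, was itself lower in Doxo, with a log2 ratio of -0.70. Against it, Sox9 went from 7.19 per 100 Col2a1 UMIs in Veh to 15.2 in Doxo, and Pth1r from 3.92 to 7.52. Acan went from 9.73 to 13.3, though its own CPM was lower in Doxo (-0.25). Comp went from 27.9 to 24.0 and Col10a1 from 1.80 to 0.933.

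The position of the 10 genes between resting and hypertrophic cells was then read. Clustering the chondrocyte-like cells alone gave 3 clusters that followed the libraries: 157 of 174 cells of the first came from Veh and 128 of 145 of the second from Doxo. The second was led by Zfp36, Ddit3, Irf1, Egr2 and Klf2, several of them immediate-early or stress genes, with Ihh among its 10 leading genes, and the third (72 Veh and 57 Doxo cells) by Hbb-bs, Ibsp and Spp1. They were therefore not used as stages of maturation. Instead, each cell was scored by the log2 ratio of its UMIs of 12 hypertrophic genes (such as Ibsp, Spp1, Mmp13, Alpl and Mef2c) to those of 6 resting genes (such as Ucma, Clu and Pthlh), none of them among the 10, and the cells of both libraries were put together in 5 ranges of equal size. This order was chosen after the clusters had been seen. A few genes made up most of the score: Ucma held 68.1% of the resting UMIs in Veh and 77.1% in Doxo, Clu 29.6% and 18.1%, Ibsp 51.3% and 31.3% of the hypertrophic UMIs and Spp1 26.1% and 23.6%. All but Ucma were lower in Doxo in the class. The order was therefore also drawn without Ibsp and Spp1, and without Clu. Ranges 1 to 5 held 51, 43, 45, 50 and 57 Veh cells and 39, 46, 45, 39 and 33 Doxo cells, and 28 Veh and 21 Doxo cells lay within 0.1 of a border. Ibsp and Spp1 are also osteoblast products, and the 8 osteoblast markers, Ibsp included, went from 1852 CPM in range 1 to 26431 CPM in range 5 of Veh, and from 783 to 10579 CPM in Doxo.

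In this order Col10a1 was found almost entirely at the hypertrophic end. In Veh it had 0, 1, 2, 33 and 2128 UMIs in ranges 1 to 5, and in Doxo 2, 0, 0, 2 and 430. In range 5 this was 1774 CPM in Veh, at least 541-fold the level that 3 UMIs would give in range 1, and 863 CPM in Doxo. Veh and Doxo had a Col10a1 UMI in 35.1% and 33.3% of the range 5 cells, and the ratio of Doxo to Veh in this range was -1.04 (-1.19 to -0.89). Without Ibsp and Spp1 in the score, Veh had 1713 CPM in range 5, but Doxo had 398 CPM there and 259 CPM in range 2, the latter from 1 cell, and the ratio in range 5 was -2.10 (-2.31 to -1.91). The place of Col10a1 in Doxo, and the size of its ratio in range 5, thus hung on the genes in the score.

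Ihh reached further back in the order than Col10a1, and further in Doxo than in Veh. Its levels in ranges 1 to 5 were 1.09, 7.68, 11.7, 39.1 and 386 CPM in Veh, and 5.19, 1.54, 58.2, 395 and 496 CPM in Doxo. In range 4, 13 of 50 Veh and 22 of 39 Doxo cells had an Ihh UMI, and the ratio of Doxo to Veh was 3.32 (2.87 to 3.84), against 0.36 (0.13 to 0.59) in range 5. Without the top cell of each library it was 3.38 in range 4. With Ibsp and Spp1 left out of the score it was 3.17 in range 4, and with Clu left out 3.69. In range 4 the erythroid markers summed to 2684 CPM in Veh and 12.4 CPM in Doxo, and the median cell had 21810.5 UMIs in Veh and 17834 in Doxo. The part of these differences in the ratio of Ihh was not tested.

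Pth1r was higher towards the hypertrophic end in both libraries, going from 526 CPM in range 1 to 1700 CPM in range 5 of Veh, and from 577 to 1790 CPM in Doxo. At the ends the ratios of Doxo to Veh had intervals that held 0, at 0.13 (-0.07 to 0.34) in range 1 and 0.07 (-0.04 to 0.19) in range 5. In between the libraries lay apart, and range 3 had 594 CPM in Veh and 1104 CPM in Doxo, a ratio of 0.89 (0.73 to 1.06). Without Ibsp and Spp1 in the score, the ratio of Pth1r was 0.25 (0.03 to 0.46) in range 1, 0.13 (-0.04 to 0.30) in range 3 and 0.63 (0.51 to 0.75) in range 4, so the range in which the libraries lay apart was not settled.

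Sox9 ran differently in the libraries. In Veh it went from 2204 CPM in range 1 to 1414 CPM in range 5, a log2 ratio of the ends of -0.64 (-0.73 to -0.55). In Doxo it went from 2109 to 2269 CPM by way of 2766 CPM in range 3, and the ratio of the ends was 0.11 (-0.01 to 0.22), or 0.35 (0.24 to 0.47) without Ibsp and Spp1 in the score. The ratio of Doxo to Veh was -0.06 (-0.17 to 0.04) in range 1 and 0.01 (-0.11 to 0.12) in range 2, and 0.46, 0.66 and 0.68 in ranges 3, 4 and 5. With either change of the score, the ratio was between 0.44 and 0.82 in ranges 3 to 5. The ranges were not read without the deepest 5% of cells, where the ratio of Sox9 over the class was -0.11.

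Among the matrix genes, Acan and Hapln1 were both higher at the hypertrophic end in both libraries. Acan went from 1818 to 2808 CPM in Veh and from 1423 to 2524 CPM in Doxo, and Hapln1 from 1508 to 2637 CPM in Veh and from 1212 to 2362 CPM in Doxo. Col2a1 went from 20167 to 27023 CPM in Veh and from 10225 to 14327 CPM in Doxo, with its peak in range 4 of Veh, 31343 CPM. It was lower in Doxo in all 5 ranges, with ratios from -0.98 in range 1 to -0.19 in range 3. Col9a1 and Comp were also lower in Doxo in all 5 ranges, Col9a1 by ratios of -0.90 to -0.22 and Comp of -1.23 to -0.21. Matn3 was lower in range 1 of Doxo (437 against 795 CPM), while its ratio in range 4 was 0.07 (-0.09 to 0.23), or -0.24 (-0.41 to -0.07) without Ibsp and Spp1 and 0.26 (0.10 to 0.42) without Clu in the score. Range 1 of Doxo also held RNA of articular and fibroblast genes, 3978 CPM over the articular list with 3216 CPM of Prg4 alone, against 881 CPM over the list in Veh. Its part in the ratios of range 1 was not tested.

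Over the whole order, 3 of the 10 genes were at least 2-fold higher in range 5 than in range 1 in Veh (Col10a1, Ihh and Pth1r) and none at least 2-fold lower, where 7.94% of all genes were higher and 10.6% lower by as much. The same 3 genes were at least 2-fold higher in Doxo, where 9.33% of all genes were. Without Ibsp and Spp1 in the score, Acan (1.11), Col9a1 (1.13) and Hapln1 (1.17) joined them in Doxo, which makes 6 genes. By any amount, 8 of the 10 were higher in range 5 in Veh, where 41.1% of all genes were, and 10 of 10 in Doxo, where 49.8% were. In Doxo the intervals of Sox9 and Matn3 held 0, though not without Ibsp and Spp1 in the score, where Matn3 had 0.71 (0.48 to 0.94).

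**Figure D3:**
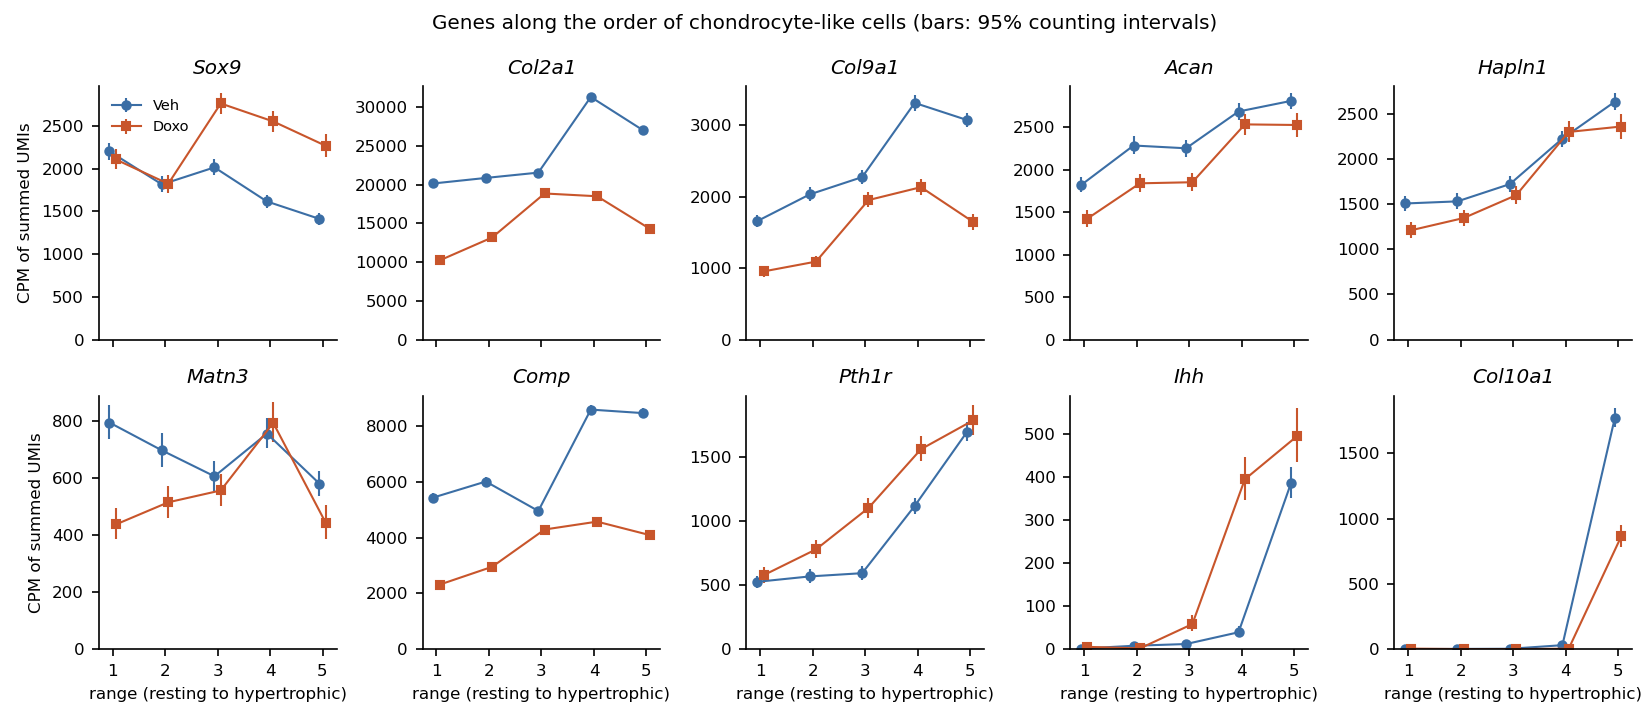
CPM of each gene (linear axes starting at 0, with 95% counting intervals) in ranges 1 to 5 of the score from resting to hypertrophic, circles for Veh and squares for Doxo. Ihh reaches 395 CPM in range 4 of Doxo and 39.1 CPM in range 4 of Veh, while Col10a1 is seen in range 5 of both.

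Cell by cell, Ihh and Col10a1 were partly separate. In Veh, 16 chondrocyte-like cells had both, 42 had Ihh without Col10a1, 9 had Col10a1 without Ihh and 179 had neither. In Doxo, 10 had both, 51 Ihh alone, 5 Col10a1 alone and 136 neither. The median cell with Ihh alone had 23151 UMIs in Veh and 17909 in Doxo, against 18550 and 12777 with neither gene. The part of depth in these groups was not tested. The cells with Ihh alone had the highest levels of Col2a1 and Col9a1, with 31713 CPM of Col2a1 and 3653 CPM of Col9a1 in Veh, against 17530 CPM and 1335 CPM in cells with both genes. In Doxo these values were 20741 CPM and 2280 CPM against 8064 CPM and 709 CPM. Acan and Hapln1 did not share this in Doxo, with 2285 CPM and 2295 CPM in cells with Ihh alone against 2537 CPM and 2460 CPM in cells with both. The cells with Col10a1 alone had the most Mmp13, which encodes a collagenase of late hypertrophic cartilage: 2808 CPM in Veh and 2252 CPM in Doxo, against 646 CPM and 35.7 CPM in cells with both. Pth1r was highest where both were found, at 1781 CPM in Veh and 1810 CPM in Doxo, and had 789 CPM and 853 CPM in cells with neither.

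Col10a1 was carried by 2 kinds of cells. Cells with at least 10 UMIs of it, a threshold set after the values had been seen, numbered 16 in Veh and 8 in Doxo among chondrocyte-like cells, and 27 in Veh and 26 in Doxo among bone and cartilage fibroblast-like cells. They held 2146 of the 2164 Col10a1 UMIs of the chondrocyte-like cells in Veh and 425 of 434 in Doxo, and 1143 of 1297 and 1912 of 2056 in the fibroblast-like class. The chondrocyte-like kind had Pth1r in 16 of 16 and 8 of 8 cells (1675 CPM in Veh and 1594 CPM in Doxo), Ihh in 13 of 16 and 6 of 8, and Panx3, a channel gene of hypertrophic chondrocytes, in 16 of 16 and 7 of 8. Ibsp and Spp1 of the hypertrophic list were found in both kinds. In the chondrocyte-like kind Ibsp had 15483 CPM in Veh and 8865 CPM in Doxo, and Spp1 23704 and 25018.5 CPM. In the fibroblast-like kind Ibsp had 7663 and 3864 CPM (16 and 18 cells), and Spp1 8854 and 2626 CPM (15 and 14 cells). The fibroblast-like kind had Ihh in 2 of 27 and 0 of 26 cells, 76.7 CPM and 43.1 CPM of Pth1r, and 35.8 CPM and 15.4 CPM of Col9a1, against 1631 CPM and 409 CPM in the chondrocyte-like kind.

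The fibroblast-like kind was instead filled with RNA of Prg4, which encodes the joint lubricant lubricin, at 129410 CPM in Veh and 133208 CPM in Doxo. It also held Cilp, which encodes a protein of articular cartilage, at 8627 CPM and 8951 CPM. Both genes are among the 8 markers by which the bone and cartilage fibroblast-like class was named, so their level in it is not independent of the naming. Prg4 in the chondrocyte-like kind was at 58.8 CPM and 332 CPM. Both kinds carried Acan, at 2310 CPM in both libraries of the chondrocyte-like kind and at 1988 and 1983 CPM in the other, and Sox9, at 1067 and 1475 CPM against 1078 and 1539 CPM. The difference between Veh and Doxo over the whole classes was of opposite sign, which was not tested: Col10a1 was lower in Doxo in chondrocyte-like cells but stood higher there in the bone and cartilage fibroblast-like class, where its ratio was 0.72 (0.62 to 0.83), or 0.55 without the top cells. It was -0.12 in the latter when 20 principal components were used in the clustering.

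**Figure D4:**
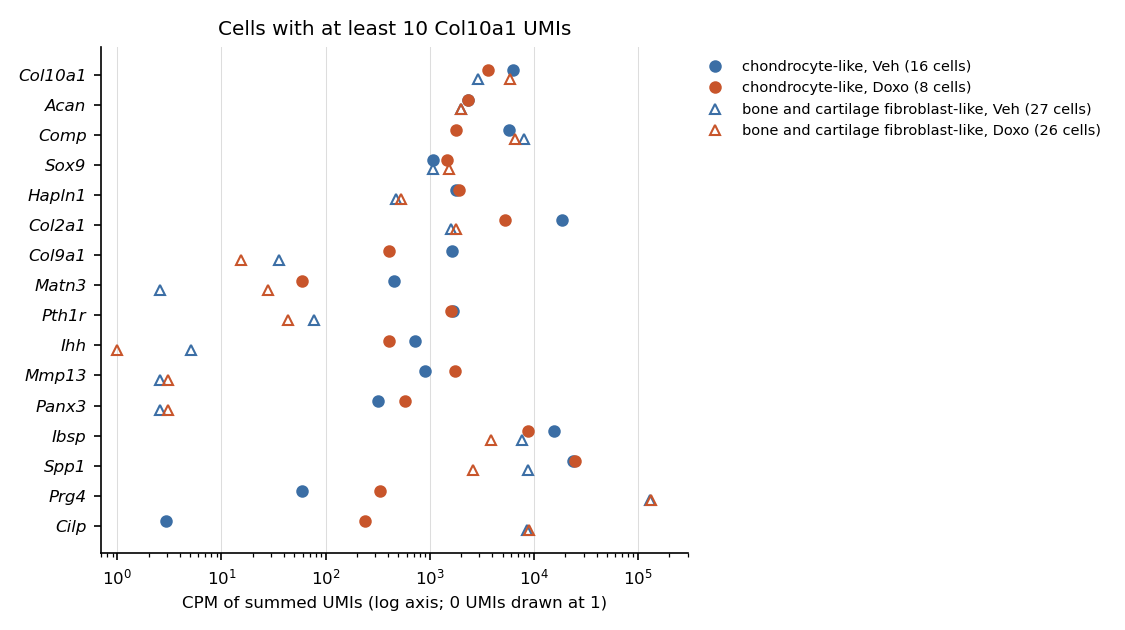
Levels (CPM of summed UMIs, log axis) of 16 genes in the cells with at least 10 Col10a1 UMIs, filled circles for chondrocyte-like and open triangles for bone and cartilage fibroblast-like cells, blue for Veh and red for Doxo. Acan and Sox9 lie close together in both kinds, Pth1r, Ihh, Mmp13 and Panx3 lie to the right in the chondrocyte-like kind, and Prg4 and Cilp in the other. Ibsp and Spp1 are present in both kinds. Prg4 and Cilp are among the markers by which the fibroblast-like class was named.

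In bone and cartilage fibroblast-like cells, 0 of the 10 genes was at least 2-fold apart, where 7.62% of all genes were, and 5 were lower and 5 higher in Doxo, where 38.5% of all genes were higher. Sox9 (0.60, 0.56 to 0.65), Acan (0.50, 0.44 to 0.56), Hapln1 (0.32, 0.24 to 0.40) and Col2a1 (0.18, 0.14 to 0.22) were higher in Doxo. Acan, Hapln1 and Col2a1 thus had the sign opposite to that in chondrocyte-like cells, where they were lower. The matrix makeup of the class was its own, with 3.72 Col9a1 UMIs per 100 of Col2a1 in Veh and 3.15 in Doxo, against 10.3 in the chondrocyte-like cells, and 65.8 and 88.3 of Sox9, against 7.19 and 15.2.

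After the chondrocyte-like cells, Pth1r was highest in osteoblast-like cells. CAR-like cells came next in Doxo, while in Veh they (126 CPM, 113 to 141) and bone and cartilage fibroblast-like cells (123 CPM, 117 to 130) overlapped. It was found in 65.3% of Veh and 76.5% of Doxo osteoblast-like cells (399 and 506 CPM) and in 48.2% and 62.8% of CAR-like cells (126 and 159 CPM), against 5.83% and 8.70% of endothelial-like cells. Thinned to 2000 UMIs per cell, the shares were 52.1% and 59.1% in osteoblast-like cells, 22.0% and 28.9% in CAR-like cells and 2.08% and 6.56% in endothelial-like cells. Its ratio of Doxo to Veh was 0.34 (0.12 to 0.57) in the first and 0.33 (0.12 to 0.54) in the second class, though -0.16 in osteoblast-like cells at a clustering resolution of 0.2. Pth1r per 100 Col2a1 UMIs was 30.0 and 27.3 in osteoblast-like cells, 7.66 and 3.63 times that of the chondrocyte-like cells of the same library.

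Col2a1 was also found in 66.2% of Veh and 61.8% of Doxo osteoblast-like cells, at 1329 and 1857 CPM, and in 31.1% and 23.2% of endothelial-like cells, which should lack it. The osteoblast-like cells of Veh had 2.67 Col9a1 and 2.76 Acan UMIs per 100 of Col2a1, against 10.3 and 9.73 in chondrocyte-like cells. Those of Doxo had 7.38 and 15.2, against 10.3 and 13.3, so the makeup differed less there. In Doxo, 2 osteoblast-like cells held 50% of the Col2a1 UMIs. The osteoblast-like cells were shallow, with a median of 3113 UMIs per cell in Veh and 3061 in Doxo, and 6 of the 9 genes with at least 10 UMIs there were at least 2-fold higher in Doxo, where 13.8% of all genes were. Between 1 and 3 cells of Doxo held 10 or more UMIs of each of Sox9, Acan, Col9a1, Col10a1, Matn3 and Hapln1, which are those 6. The median of the class had the other sign under other clusterings, with values from -1.77 to 2.48 over the settings tried, so no direction is given for them. In CAR-like cells Sox9 was lower in Doxo, with 123 CPM in Veh and 66.7 CPM in Doxo, a ratio of -0.88 (-1.14 to -0.62), or -0.41 with 20 principal components. A Sox9 UMI was present in 23.4% of Veh and 24.6% of Doxo cells of this class, and 8 Veh cells held 50% of its UMIs there. In the same class, 1 Doxo cell held 95.1% of the Col10a1 UMIs. In that class 2 of 9 genes, Acan and Col10a1, were at least 2-fold apart, as were 9.86% of all genes.

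The genes around the 10 were read from lists of cartilage and growth plate genes, again in chondrocyte-like cells. They are set beside the 13.3% of all genes at least 2-fold apart and the 54.4% higher in Doxo. Of 17 other cartilage matrix genes, 13 were lower and 4 higher in Doxo, 0 by 2-fold, with a median of -0.19. The lowest were Fmod (fibromodulin), with 581 CPM in Veh and 337 CPM in Doxo, a ratio of -0.78 (-0.89 to -0.68), and Col9a3 (-0.73). The highest were Cytl1, a cytokine-like secreted protein, with 5965 CPM in Veh and 10194 CPM in Doxo, a ratio of 0.77 (0.75 to 0.80), and Chad (chondroadherin, 0.41). Of 12 regulators of chondrocytes, 11 had at least 10 UMIs, and 10 were higher in Doxo, 0 by 2-fold, with a median of 0.35. Mef2c, which drives hypertrophy, had 407 CPM in Veh and 686 CPM in Doxo, a ratio of 0.75 (0.66 to 0.84), and Foxa2, another factor of hypertrophy, 35.7 and 54.0 CPM, a ratio of 0.60. The lowest were Hdac4 (-0.14, -0.55 to 0.25) and Trps1 (0.08, -0.05 to 0.21).

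In the loop that Ihh and Pth1r belong to, 9 of 10 genes with at least 10 UMIs were higher in Doxo and 2 by at least 2-fold. Of all genes in the class, 54.4% were higher and 6.05% by at least 2-fold. The median of the list, 0.66, was the ratio of Sufu (24 UMIs in each library) and Kif7 (13 in each). Ptch1, the hedgehog receptor and itself a target of the pathway, had 163 CPM in Veh and 459 CPM in Doxo, a ratio of 1.49 (1.36 to 1.62). Pthlh was counted 15 times in Veh against 90 in Doxo, for a ratio of 3.21 (2.45 to 4.15), and the 131 CPM of range 1 of Doxo made up most of it. Gli1, another target, had 57 and 58 UMIs, a ratio of 0.69 (0.14 to 1.24). Gli2, Sufu and Kif7, with at most 24 UMIs in a library, had intervals that held 0. Gnas, which encodes the G protein subunit that carries the PTHrP signal, was the one lower gene, at -0.37, and Smo, the hedgehog signal transducer, had 0.43.

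Within the lists of stages, genes went both ways. Of 11 hypertrophic genes, 5 were higher and 6 lower in Doxo, 4 of them at least 2-fold: Ibsp at 4338 CPM in Veh and 1400 CPM in Doxo (-1.63), Vegfa at 155 and 54.0 CPM (-1.52), Mmp13 at 196 and 69.7 CPM (-1.49) and Spp1 at 2211 and 1053 CPM (-1.07). The transcription factors Mef2c (0.75) and Sp7 (0.44) of the same list were higher. Ibsp is itself 1 of the 8 osteoblast markers given above, which were also lower in Doxo, and its part in that sum was not taken out. Of 6 resting genes, 5 were higher and 3 of these by 2-fold, with a median of 1.28, but Pthlh, Sfrp5 and Barx1 had at most 90 UMIs in a library. Clu was lower (-0.63), Ucma (0.25) and Gas1 (0.52) higher. Of 6 proliferating genes, Mki67 (68 UMIs in Veh and 14 in Doxo, -1.58), Top2a (56 and 7, -2.25) and Cdk1 (20 and 5, -1.23, with an interval that held 0) were at least 2-fold lower, and Fgfr3 (0.50) and Cenpf (0.47, -0.33 to 1.26) were above 0. Of 6 articular genes with at least 10 UMIs, 4 were higher, led by Prg4 (258 and 711 CPM, 1.46) and Cilp (0.62), and the lowest were Creb5 (-0.42, -0.96 to 0.09) and Cilp2 (-0.04). Of 6 matrix breakdown genes, 5 were lower and 4 of these at least 2-fold, among them Mmp3 (125 UMIs in Veh and 11 in Doxo, -2.78) and Adamts5, an aggrecanase (201 and 80.4 CPM, -1.32). Timp3, an inhibitor of such enzymes, was higher, at 1120 and 1879 CPM (0.75), and Htra1 had -0.85.

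**Figure D5:**
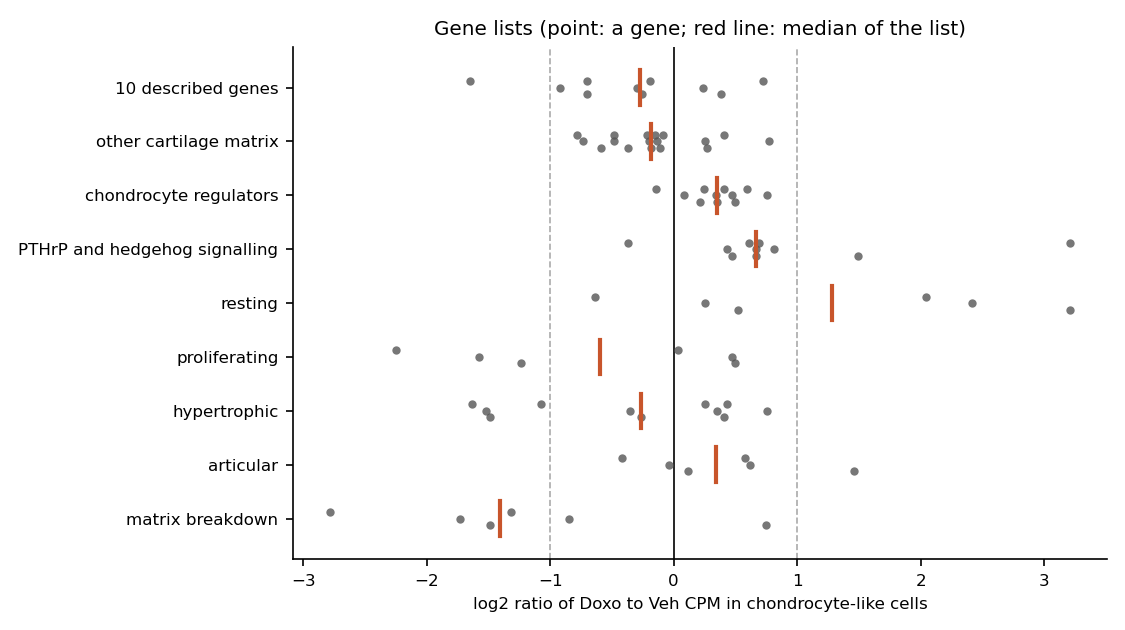
Log2 ratio of Doxo to Veh CPM in chondrocyte-like cells for each gene with at least 10 UMIs (grey points) of the 10 genes and of 8 lists, with the median of each list as a red line and 2-fold as dashed lines; some genes are on more than 1 list. The median lies at -1.40 for matrix breakdown and 0.66 for PTHrP and hedgehog signalling, the latter set by Sufu and Kif7, which had few UMIs.

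The genes whose pattern was most like each of the 10 were taken from 13528 genes by Pearson's r of log2(CPM + 1) over 18 points, the classes in both libraries with the chondrocyte-like cells split by cluster, which share libraries and depth. Acan and Hapln1 were among each other's 3 nearest genes (r = 0.988), as were Col9a1 and Matn3 (0.985), while the other 6 had none of the 10 among theirs. Scrg1 and Snorc were near both Acan and Hapln1. Col2a1 was nearest to Col9a3 (0.986) and Col9a1 to Col9a2 (0.985). Ihh was nearest to Foxa2 (0.951), Pth1r to 2310010J17Rik (0.949) and Sox9 to Sdc4 (0.943). Col10a1, nearest to Fxyd3, and Comp, nearest to Itih2, had the lowest best values (both 0.921).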

How the data were processed

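The deposited values were per-cell tables of log2 values, which the authors made from 10x 3′ libraries with Cell Ranger and Partek (versions not given in the sources used here; builds named as GRCm38 and mm10). The scaling behind the log2 values was not given there, so it was read from the values, and each cell was turned back into UMIs: of the values up to 50 UMIs, 99.94% came out whole within 0.05 in each library. Depth was 24859695 UMIs in Veh and 20792012 in Doxo. Cells were clustered with Seurat 5.3.0 in R 4.3.3 (2000 variable genes without the 10, 35 principal components, resolution 0.1, libraries merged without integration). Endothelial-like cells were taken out first and the rest clustered again. The call rate of Scrublet in scanpy 1.11.5 (9 Veh and 3 Doxo cells) was too low to rely on, so doublets were kept in. UMIs were summed per class and library, and log2 ratios added 0.5 UMI on each side. Counting intervals were exact (Poisson for levels, binomial for shares, conditional binomial for ratios; scipy 1.17.1), and 0.5 UMI was not used in them. Medians and shares of all genes used genes with at least 10 UMIs in the class. The ratio and its interval were tested on simulated data.

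Cell groups differ from the study's own names where they were rebuilt here. The members, lists and tests were chosen with earlier results of these data known. Named genes were the 10 members, the 3 most alike to each, and from each list the 2 highest and 2 lowest ratios among genes with at least 50 UMIs. Spp1, Mmp13 and Mef2c among the hypertrophic genes, and Gli1, Gli2, Sufu, Kif7, Cdk1, Adamts5, Sfrp5, Barx1 and the genes set beside the Col10a1 cells were named after their values were seen. Promoters and their coordinates came from RefSeq, and gene positions from GENCODE.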

Additional observations from a re-analysis of the deposited data

Results flagged for a closer look

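Flagged here are 4 cases in which the ratio of Doxo to Veh was above 0 in another class and below 0 in chondrocyte-like cells. Each rests on 1 library per condition, and the difference between the classes was not tested. They are not all such cases. Acan (0.50) and Hapln1 (0.32) in bone and cartilage fibroblast-like cells, for example, were also above 0, against -0.25 and -0.19 in chondrocyte-like cells. Col10a1 had a log2 ratio of Doxo to Veh of 0.72 in bone and cartilage fibroblast-like cells and of -1.65 in chondrocyte-like cells. In the fibroblast-like class, 3 Doxo cells held 50% of its UMIs, and it was found in 6.94% of Veh and 5.74% of Doxo cells. In CAR-like cells the ratio of Col10a1 was 3.07, from 7 UMIs in Veh and 82 in Doxo, and 1 Doxo cell held 95.1% of the latter. Col9a1 had 1.93 in osteoblast-like cells, from 30 and 88 UMIs, and -0.70 in chondrocyte-like cells. The 88 UMIs came from 2 Doxo cells, and the ratio was -4.46 with the 10 genes among the clustering genes and -4.93 with 20 principal components, so no direction is given for it. Col2a1 had 1.30 in endothelial-like cells, from 34 and 42 UMIs, and -0.70 in chondrocyte-like cells, and without the top cell of each library the former was 0.67 (-0.16 to 1.46).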

How the results depend on the processing

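No paired analysis was possible because each condition has 1 library. In chondrocyte-like cells the median log2 ratio of the 10 genes, -0.28, was -0.35 without the deepest 5% of cells and -0.44 with each cell thinned to 2000 UMIs, and the count of genes at least 2-fold apart, 1, was 2 without the top cell of each gene. Sox9 had -0.11 without the deepest 5% of cells. Over 11 settings Col10a1 ran from -2.43 to -1.21, Ihh from 0.33 to 1.08 and Col2a1 from -0.82 to -0.70. The background of 13.3% was 6.75% over genes with at least 50 UMIs. The median in bone and cartilage fibroblast-like cells, 0.06, was -0.14 with 20 principal components, and 0.21 without the deepest cells and also when thinned, and Col10a1 there was -0.12 with 20 components. The median in CAR-like cells, 0.15, was -1.08 without the deepest cells. There, Comp was 0.0047 with the stricter cell filter and also without called doublets, and Col10a1 was -1.15 without called doublets and -0.92 without the top cell. The median in osteoblast-like cells, 2.48, was -0.72 with the 10 genes among the clustering genes, -1.34 with 20 components, 0.21 at resolution 0.2, -1.77 with the stricter filter, 1.01 without called doublets, -1.33 without the deepest cells, 0.68 when thinned, 1.17 with each cell weighing the same and 1.81 without the top cells. In that class Col2a1 was -0.18, -0.35, -0.95 and -0.32, and Col9a1 -4.46, -4.93, -4.14 and -3.02, with the 10 genes among the clustering genes, 20 components, the stricter filter and without the deepest cells. Pth1r was -0.16 at resolution 0.2 and -0.022 without the deepest cells. The number of genes found in a higher share of Veh than of Doxo cells, 4, was 7 with 20 components and 7 without the deepest cells. The number higher in the last than in the first chondrocyte-like cluster in both libraries, 5, was 3 when thinned and 3 with each cell weighing the same. The causes were not tested. Of the other values recomputed, 103 summary values and 342 values of single genes stayed within their counting error or, for counts of genes, near their count, and 122 values of single genes moved beyond it without a change of sign. Leaving out top cells, the ranges of the score and the Col10a1 threshold were chosen after seeing the data.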
